A study of Mus musculus with 2 samples.

Results

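The 9 MHC class II antigen presentation genes described here were found by symbol among the 27998 genes counted in a single-cell survey of mouse lung. H2-Aa, H2-Ab1 and H2-Eb1 encode chains of the class II molecules, which show peptides to CD4 T cells. Cd74 encodes the invariant chain that guards their groove. The name surface chains is used below only as a label for H2-Aa, H2-Ab1 and H2-Eb1. RNA does not show that the protein of any of them, H2-Eb1 included, reaches the surface. H2-Ea-ps, another gene of the locus that was looked for, was not among the genes counted. H2-DMa, H2-DMb1 and H2-DMb2 encode chains of H2-DM, which exchanges peptides, H2-Oa encodes a chain of its inhibitor H2-DO, and Ciita encodes the transactivator on which the set depends. The members were chosen by name and not by level. On GRCm38 (GENCODE M21) the 7 H2 genes lie on chromosome 17 between 34092340, the start of H2-Oa, and 34316674, the end of H2-Eb1. Ciita lies on chromosome 16 from 10480059 to 10528418 and Cd74 on chromosome 18 from 60803848 to 60812652, and all 9 are annotated as protein coding.

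The series holds whole-lung cells of 2 male C57Bl/6J mice aged 3 months, 1 labelled control and 1 labelled fibrosis, taken 14 days after 100 µg of particles entered the trachea. The particles were TiO2 (titanium dioxide) or crocidolite asbestos, a mineral fibre that scars the lung, and the labels do not tie a particle to a mouse or name any genetic change. Lungs were digested with dispase and DNase I, red cells were lysed, and 3′ ends of transcripts were counted as unique molecular identifiers (UMIs) in droplets. Every difference given here is between 1 mouse and 1 other, so no value has a replicate check and no test or p-value is given.

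After filtering, 7510 control and 6777 fibrosis cells remained, with 32403258 and 35896974 UMIs and medians of 3691 and 4287 UMIs per cell, and 89 barcodes occurred in both libraries. Of 35 clusters 29 were named from marker genes, and 14 classes held at least 50 cells in each library. Levels are UMIs of a gene per 1000000 UMIs of the class (CPM), with exact Poisson 95% intervals, and ratios have exact binomial 95% intervals. A 3′ tag counts a transcript once whatever its length. Intervals reflect counting error alone, not differences among mice. The AT2-like class (type II alveolar epithelium, which makes surfactant) held its markers in both libraries, for instance Sftpc at 199440.0 and 173520.0 CPM.

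Class II molecules are built in the endoplasmic reticulum around the invariant chain and travel to endosomes, where proteases trim that chain to a short peptide. H2-DM then swaps this peptide for one from digested protein, and H2-DO restrains H2-DM. Dendritic cells, B cells and many macrophages carry the set constitutively, interferon gamma can bring it on in other cells, and type II alveolar cells are known to carry it in the healthy lung. Mouse T cells are not known to make the whole set, so the level in T cell-like cells was used as a rough reference for UMIs that come from other cells.

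The H2 genes and Cd74 share a promoter block, known as the X and Y boxes, at which the CIITA-dependent complex assembles. RefSeq promoter windows (GRCm38.p6, 250 bases before to 50 after a transcript's start) were found for 6 of 8 members looked up, in 7 windows, with 2 for H2-DMa. Cd74 was not looked up, and H2-Ab1 and Ciita had no window. The stretches of 90 bases below are shown because they hold letters of this block, in members that followed the summed set across cell classes closely (H2-Aa, H2-Eb1) and in members that followed it less closely (H2-DMb1, H2-DMb2, H2-Oa). Capitals mark the letters AGNNACNGA (part of the X1 box), GATTGG (part of the Y box) and TGACGTCA (a full cyclic AMP response element), searched on both strands. No match of one motif overlapped a match of another in these stretches.
H2-Aa: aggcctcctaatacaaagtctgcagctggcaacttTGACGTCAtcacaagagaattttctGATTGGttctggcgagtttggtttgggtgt
H2-Eb1: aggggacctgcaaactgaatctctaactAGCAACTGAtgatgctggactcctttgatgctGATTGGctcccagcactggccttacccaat
H2-DMb1: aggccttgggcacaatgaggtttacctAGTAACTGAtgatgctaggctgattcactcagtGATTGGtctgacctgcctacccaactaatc
H2-DMb2: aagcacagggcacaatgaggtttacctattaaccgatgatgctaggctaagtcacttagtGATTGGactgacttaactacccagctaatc
H2-Oa: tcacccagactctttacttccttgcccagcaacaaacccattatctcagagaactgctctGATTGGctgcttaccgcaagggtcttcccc
The stretches lie at chr17:34287843-34287932 (minus strand, H2-Aa), chr17:34305747-34305836 (H2-Eb1), chr17:34153069-34153158 (H2-DMb1), chr17:34145098-34145187 (H2-DMb2) and chr17:34092275-34092364 (H2-Oa), the last 4 on the plus strand.

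All 5 stretches hold the Y box letters, starting between 44 and 91 bases before the transcript start, at -49 in H2-Aa, -60 in H2-Eb1, -62 in H2-DMb1, -91 in H2-DMb2 and -44 in H2-Oa. The X1 letters precede them in H2-Eb1 and H2-DMb1, with 23 and 24 bases between. H2-Oa has them outside its stretch, at -141 (88 bases before its Y box letters) and, on the opposite strand, at -187 and -4, and H2-DMb1 has another opposite-strand match at -163. None was found in the H2-Aa and H2-DMb2 windows. In H2-Aa the full response element precedes the Y box letters, at -74. A further Y box match on the opposite strand of H2-Eb1, at -35, runs past the end of its stretch. Of the H2-DMa windows 1 held no match and the other a Y box match at -199. Of all 32851 promoter windows of this length, 16.1% hold GATTGG, 17.7% hold AGNNACNGA, 2.81% hold both and 1.79% hold TGACGTCA. A match is a description of the letters and not of a bound site. The H2-DMb1 and H2-DMb2 stretches are copies of each other, with 76 of 90 bases identical (84.4%), while the other 9 pairs shared 23.3% to 37.8%.

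The class II set was carried by a wide range of lung cells. The sum of the 9 genes was highest in type 1 dendritic-like cells, with 55772 CPM for the control mouse and 47226 CPM for the fibrosis mouse, and pairs of values below keep that order. At a finer clustering (resolution 2), type 2 dendritic-like cells were a smaller class and ranked above them, with 68932 and 56076 CPM against 55772 and 47371. Type 2 dendritic-like cells followed with 42815 and 46410 CPM, then interstitial macrophage-like cells with 41595 and 45864 CPM and B cell-like cells with 31259 and 23280 CPM. Proliferating cells, a mixture of cycling kinds, held 12415 and 19384 CPM, and nonclassical monocyte-like cells 7913 and 11373 CPM. The order down to AT2-like cells kept to classes with at least 50 cells in each library. Left out of it, migratory dendritic-like cells (11 and 82 cells) held 18687 and 20033.5 CPM. Plasmacytoid dendritic-like cells (63 and 47 cells) held 9491 and 9028 CPM, and both classes lay above AT2-like cells. Within that order AT2-like cells followed nonclassical monocyte-like cells, at 4626 (4572 to 4681) CPM and 6092 (6044 to 6140) CPM. Of the other epithelial classes, ciliated-like cells held 280 and 649 CPM over 127 and 160 cells. At resolution 2 only 77 and 84 cells took this name, with 333 and 879 CPM. A cluster named club there, led by Cyp2f2 and Scgb1a1, held 50 and 76 cells, with 257 and 581 CPM. AT1-like cells (type I alveolar epithelium) held 635 and 1965 CPM over 28 and 33 cells, but 4144 and 4706 CPM over the 54 and 88 cells that took this name at resolution 2. Innate lymphoid-like (1915 and 2336), endothelial-like (1600.0 and 4238), alveolar macrophage-like (1209 and 2433) and classical monocyte-like cells (1076 and 2444 CPM) came lower. At resolution 2 the classical monocyte name also covered a cluster led by Plac8, with 491 and 212 cells and 4556 and 10472 CPM. The others so named, led by Mnda and by Vcan, held 1663 and 3259 CPM and 557 and 558 CPM. The level and place of this class thus depended on the clustering. NK cell-like (597 and 3668) and T cell-like cells (575 and 1210 CPM) were low in the control library. Among neighbours, the intervals of NK cell-like and T cell-like cells overlapped in the control library. In the fibrosis library those of type 2 dendritic-like and interstitial macrophage-like cells did, and those of alveolar macrophage-like, classical monocyte-like and innate lymphoid-like cells.

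**Figure D1:**
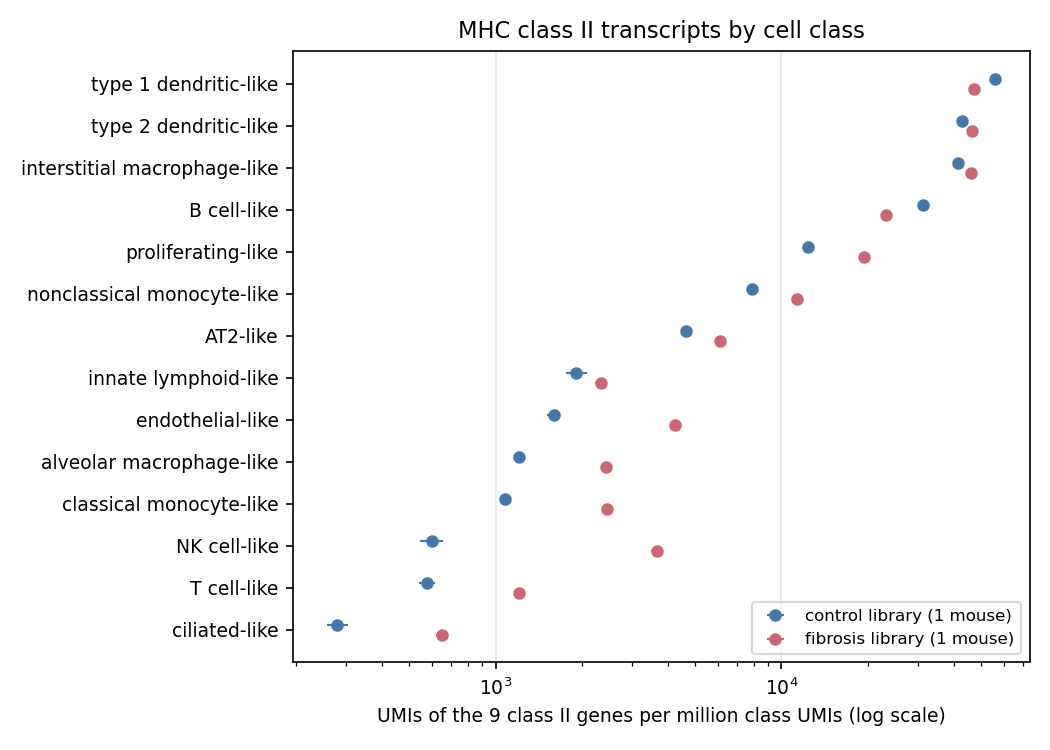
Each point is the summed level of the 9 class II genes in 1 class and 1 library, in CPM on a log axis, with exact Poisson 95% intervals as bars (mostly narrower than the point). Type 1 and type 2 dendritic-like and interstitial macrophage-like cells lie at 41595 CPM or above in both libraries, AT2-like cells at 4626 and 6092, and T cell-like cells at 575 and 1210.

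AT2-like cells exceeded the T cell-like level of their own library 8.05-fold in the control (log2 3.01, interval 2.92 to 3.10) and 5.03-fold in the fibrosis library (2.33, 2.27 to 2.40). Because they are numerous, with 991 and 1682 cells, they held 12.5% and 17.9% of all class II UMIs of the kept cells. In the control library this was about as much as type 1 dendritic-like cells (13.6%), and B cell-like cells held most, 26.2%. In the fibrosis library type 2 dendritic-like (18.0%) and type 1 dendritic-like cells (17.3%) held shares near that of AT2-like cells, and B cell-like cells held 6.27%. The proportion of a class in these digests cannot be read as its proportion in the lung.

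The signal in AT2-like cells was spread over nearly all of them. With each cell thinned to 1000 UMIs, the median AT2-like cell held 4 class II UMIs (control) and 5 (fibrosis), and the middle 50% of cells held 2 to 6 and 3 to 8. Only 6.46% and 2.56% of AT2-like cells held none, against 74.5% and 61.0% of T cell-like cells, whose median was 0 in both libraries. Without thinning, a Cd74 UMI was found in 99.2% and 99.9% of AT2-like cells (median depths 5656 and 5490.5 UMIs), against 24% and 41.9% of T cell-like cells (2660.5 and 2658 UMIs). H2-Aa, H2-Ab1 and Cd74 were found together in 18.1% (15.7 to 20.6%) and 26.9% (24.8 to 29.1%) of thinned AT2-like cells, and in 0.329% and 2.6% of thinned T cell-like cells. Unthinned, these were 75.5% and 84.1% against 1.15% and 4.82%. B cell-like cells had a median of 31 and 24 and a 5th percentile of 16 and 9, and type 1 dendritic-like cells a median of 50 and 40 and a 5th percentile of 31 and 22.

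**Figure D2:**
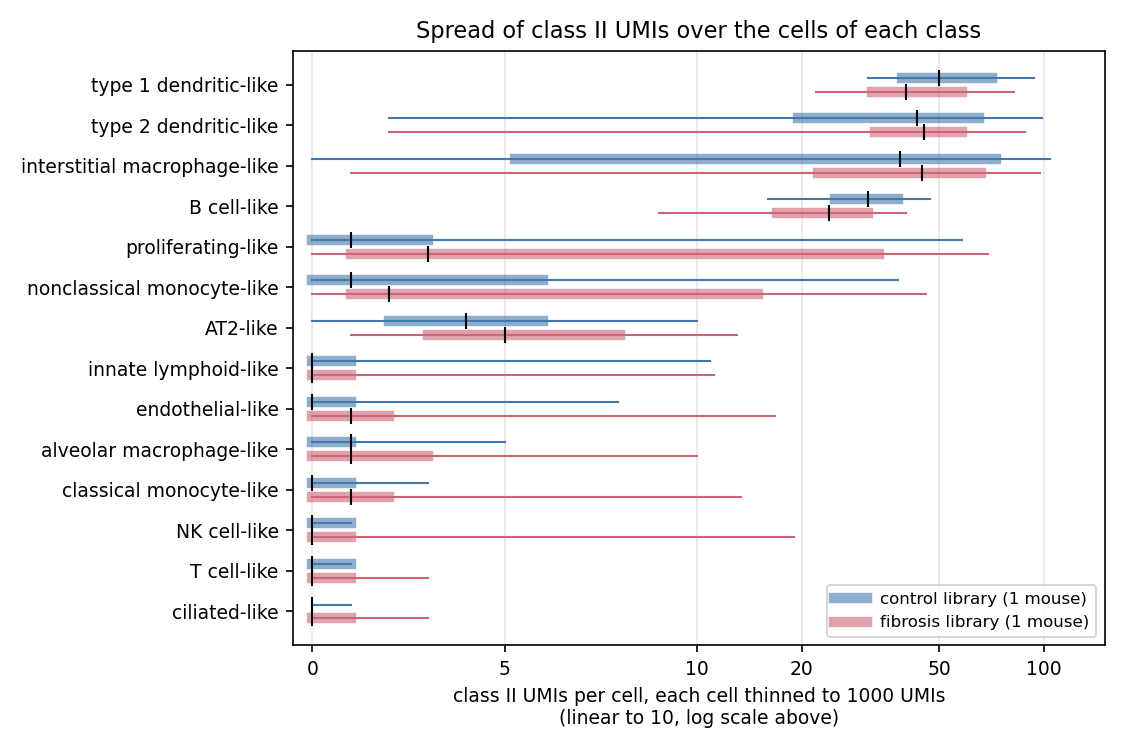
Class II UMIs per cell after thinning each cell to 1000 UMIs (axis linear to 10, log above), by class and library: black ticks are medians, thick bars the middle 50% of cells and thin lines the 5th to 95th percentile. AT2-like cells centre on 4 and 5 with few at 0, whereas interstitial macrophage-like and nonclassical monocyte-like cells stretch from near 0 to above 35.

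Classes differed in how evenly their cells held the set. Nonclassical monocyte-like cells had a median of 1 and 2 UMIs but a 90th percentile of 24 and 35, and interstitial macrophage-like cells ran from 1 and 5 at the 10th percentile to 91 and 84 at the 90th. At resolution 2 the interstitial macrophage-like cells formed a cluster led by Ccl8, Pf4 and Folr2, with 17740 (69 cells) and 24922 CPM (92 cells), and a cluster led by C1qb, C1qa and C1qc, with 58235 (96 cells) and 50893 CPM (267 cells). The first cluster was the smaller in both libraries. In NK cell-like cells 1.27% and 11.6% held 10 or more of 1000 UMIs while the median was 0 in both libraries.

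Cd74 made up most class II UMIs in AT2-like cells, 61.2% and 62.6%, against 56.9% and 55.1% for B cell-like, 49.2% and 47.7% for interstitial macrophage-like and 40.3% and 48.7% for T cell-like cells. Its AT2-like level was 2832 and 3812 CPM. The surface chains stood at 738 and 892 CPM for H2-Aa, 556 and 755 CPM for H2-Ab1, and 314 and 405 CPM for H2-Eb1. H2-Eb1 was the lowest of the 3 there, at 6.78% and 6.65% of class II UMIs, while it made up 14.8% and 16.9% for interstitial macrophage-like and 10.2% and 11.3% for B cell-like cells.

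**Figure D3:**
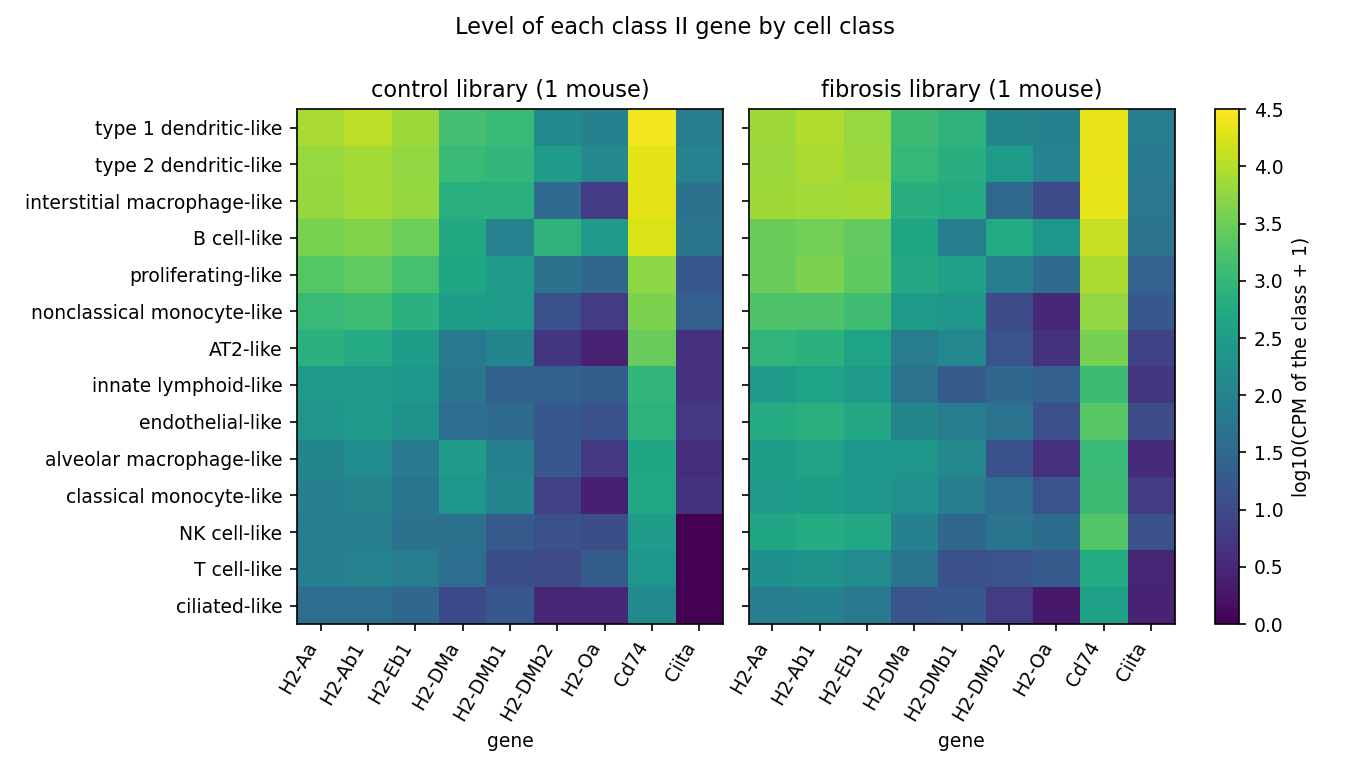
Colour gives log10(CPM + 1) of each member (columns) in each class (rows, ordered by the control sum) for the control library (left) and the fibrosis library (right). H2-DMb2 and H2-Oa are brightest in the B cell-like row and dark in the AT2-like and macrophage-like rows, where H2-DMa and H2-DMb1 are brighter.

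The peptide-editing genes divided the classes in another way than the surface chains did. B cell-like cells held H2-DMb2 at 850.2 and 552 CPM, and these cells held 71.4% and 29.5% of all H2-DMb2 UMIs. H2-DMb1, its neighbour and close copy, stood at only 97.0 and 84.1 CPM there. In AT2-like cells the balance was reversed, with H2-DMb1 at 110.4 and 123 CPM and H2-DMb2 at 4.46 and 13.1 CPM. H2-DMb2 was therefore 89.8% (88.3 to 91.1%) and 86.8% (83.8 to 89.4%) of the UMIs of both H2-DMb genes in B cell-like cells, and 3.88% (2.57 to 5.59%) and 9.65% (8.14 to 11.3%) in AT2-like cells. Interstitial macrophage-like (4.91% and 5.33%) and nonclassical monocyte-like cells (4.35% and 4.07%) were near AT2-like cells in this share in the control library. In the fibrosis library both lay below AT2-like cells, with intervals that did not overlap theirs. Part of the AT2-like share there came from 1 small cluster led by Scd1 (55 fibrosis cells). It held 48 of 134 H2-DMb2 UMIs, with H2-DMb2 at 123 and H2-DMb1 at 110 CPM. Without that cluster H2-DMb2 stood at 8.74 and H2-DMb1 at 123 CPM in fibrosis AT2-like cells. Whether the intervals would still be apart was not tested. Alveolar macrophage-like cells held 14.1% and 8.92%, type 1 dendritic-like cells 10.8% and 11.4%, and type 2 dendritic-like cells 23% and 30.1%. Migratory dendritic-like cells, with 11 and 82 cells, held 76.8% (63.6 to 87.0%) in the fibrosis library. Their H2-DMa, at 101 and 87.7 CPM, was far below the 1427 and 1196 CPM of type 1 dendritic-like cells.

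The transcripts of H2-DMb1 and H2-DMb2 are 94.5% identical over 1254 aligned bases, and 15.9% of all stretches of 90 bases in H2-DMb1 also occur in H2-DMb2 (12.7% in its last 500 bases). How reads matching both genes were counted is not given in the sources used here, so their absolute levels are uncertain. T cell-like cells held another mixture than AT2-like cells did, with H2-DMb2 at 47.2% (30.4 to 64.5%) and 51.3% (34.8 to 67.6%) of both H2-DMb genes, from 36 and 39 UMIs.

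H2-Oa, the chain of the H2-DM inhibitor, followed H2-DMb2. B cell-like cells held it at 307 and 245 CPM, or 62.1% and 30.7% of all its UMIs, and type 2 dendritic-like cells at 133 and 96.7 CPM. AT2-like cells held 1.65 and 3.62 CPM, from 10 and 37 UMIs, which was below the T cell-like 19.9 and 18.8 CPM. Interstitial macrophage-like cells, with a class II sum above that of B cell-like cells, held only 5.28 and 10.0 CPM, from 3 and 12 UMIs. H2-Oa was 36.5% and 36.1% of the UMIs of H2-Oa and H2-DMa together in B cell-like cells, 10.5% and 8.85% in type 2 dendritic-like cells, and 2.44% and 4.26% in AT2-like cells. Plasmacytoid dendritic-like cells, with 63 and 47 cells, held 20.7% and 21.1%.

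**Figure D4:**
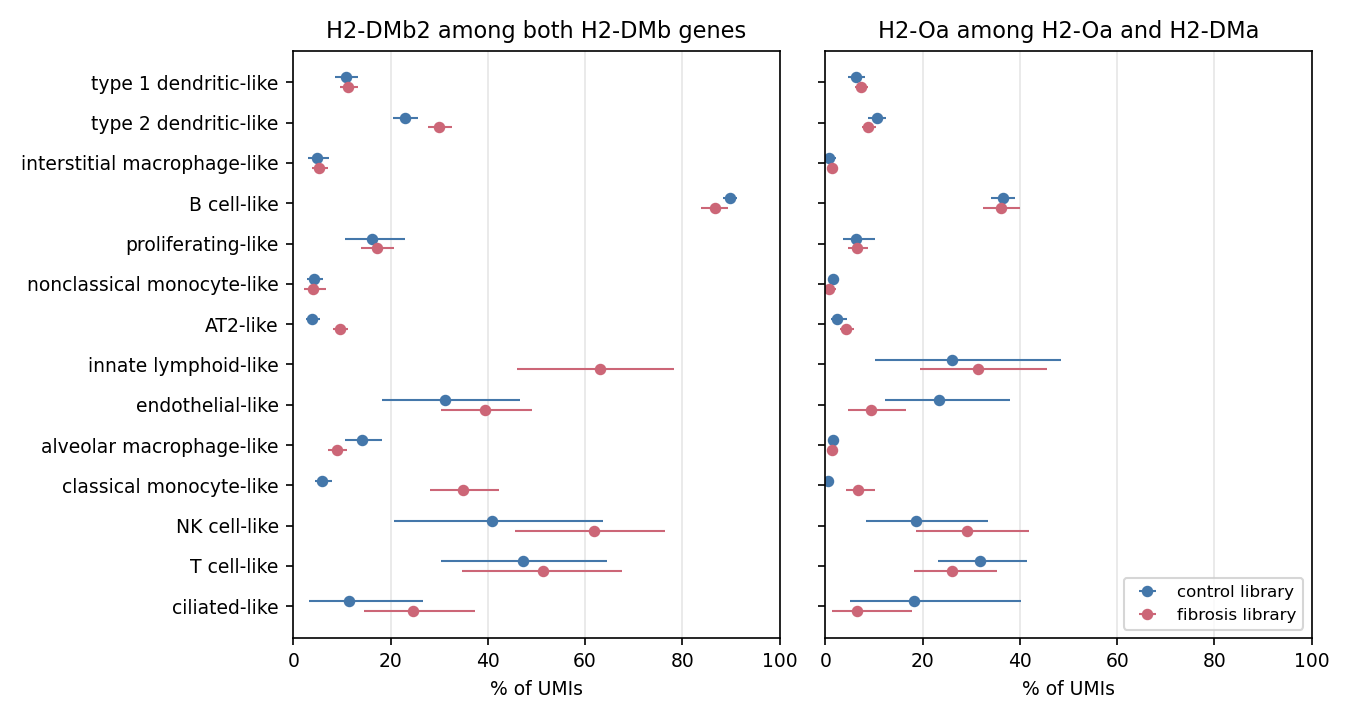
Share of H2-DMb2 among the UMIs of both H2-DMb genes (left) and of H2-Oa among the UMIs of H2-Oa and H2-DMa (right), by class and library, with exact Clopper-Pearson 95% intervals, drawn where at least 20 UMIs were counted. B cell-like cells stand at 89.8% and 86.8% on the left, AT2-like cells at 3.88% and 9.65%.

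Alveolar macrophage-like and classical monocyte-like cells held the editor genes at a low level of surface chains. H2-DMa stood at 308 and 235 CPM in alveolar macrophage-like and 231 and 189 CPM in classical monocyte-like cells, against 66.0 and 81.3 CPM in AT2-like and 42.8 and 53.1 CPM in T cell-like cells. The 3 H2-DM genes together made up 54.8% and 28.1% of the UMIs of these genes and the 3 surface chains in alveolar macrophage-like cells, and 58.0% and 26.0% in classical monocyte-like cells. In AT2-like (10.1% and 9.57%), B cell-like (11.3% and 10.5%) and type 1 dendritic-like cells (9.14% and 8.74%) this share was lower and nearly equal between the libraries. In control classical monocyte-like cells the surface chains were near or below the T cell-like level. H2-Aa stood at 89.2 against 81.5, H2-Ab1 at 102 against 99.6 and H2-Eb1 at 56.2 against 78.5 CPM. That class also held 2 clusters in unlike proportion, led by Vcan (1338 and 287 cells) and Cxcl10 (61 and 66 cells). H2-Ab1 stood at 74.3 and 78.6 CPM in the first and 735 and 1516 CPM in the second. The part of the clusters in this share was not tested.

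Ciita was scarce throughout, and highest in the classes with most class II RNA. It stood at 96.3 and 70.9 CPM in type 2 dendritic-like, 76.5 and 81.4 CPM in type 1 dendritic-like, 57.8 and 51.1 CPM in B cell-like and 47.5 and 60.8 CPM in interstitial macrophage-like cells. AT2-like cells held 3.47 (21 UMIs) and 7.04 CPM (72 UMIs), with a UMI in 2.12% and 4.04% of cells. T cell-like cells held 0 UMIs in the control library, which allows up to 1.76 CPM, and 3 UMIs in the fibrosis library. Creb1 and Rfxap, of the complex that CIITA joins on the promoter, differed less than Ciita did between AT2-like and B cell-like cells. In AT2-like cells Creb1 stood at 30.4 and 28.6, Nfyc at 18.2 and 17.1, Nfyb at 14.0 and 16.0, and Rfxap at 13.2 and 15.0 CPM, while B cell-like cells held Creb1 at 36.0 and 46.8 and Rfxap at 25.4 and 30.9 CPM.

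Between the libraries, the class II set of AT2-like cells was higher in the fibrosis library by a log2 ratio of 0.40 (0.38 to 0.42). All 9 members were higher there. The surface chains differed by 0.27 (H2-Aa), 0.44 (H2-Ab1) and 0.37 (H2-Eb1), Cd74 by 0.43, H2-DMa by 0.30 and H2-DMb1 by 0.15. The 2 members past a 2-fold difference were both scarce, H2-DMb2 at 1.53 (0.95 to 2.21) and H2-Oa at 1.08 (0.10 to 2.30), and Ciita lay just under it, at 1.00 (0.30 to 1.80). A small cluster led by Scd1 (13 and 55 cells) held 7 of 27 and 48 of 134 H2-DMb2 UMIs and 3 of 10 and 17 of 37 H2-Oa UMIs. Without it the log2 ratio was 1.36 for H2-DMb2 and 0.73 for H2-Oa, so that 1 member passed. Likewise 1 passed by gating, without doublet removal and as the mean over cells. Of 11440 genes with at least 20 UMIs in AT2-like cells, 3.51% were at least 2-fold higher in the fibrosis library and 1.17% at least 2-fold lower, and the median log2 ratio was 0.05 over all genes and 0.43 over the members. The increase of the sum was 1466 CPM, and that of the T cell-like level 636 CPM.

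Of other cells' markers in AT2-like cells, most lists were low and higher in the fibrosis library. The 9 B cell markers summed to 61.4 and 115 CPM (9313 and 7486 CPM in B cell-like cells), the 8 interstitial macrophage markers to 28.2 and 50.4 CPM, and the 7 type 2 dendritic markers to 6.27 and 10.6 CPM, with Cd209d and Cd209e at 0 in the control library. The 10 T cell markers summed to 10.6 and 17.8 CPM. The 7 type 1 dendritic markers went the other way, 219 and 184 CPM, with Gcsam at 0 in the control library. Their part in the difference was not tested. With the T cell-like level of each library subtracted, the log2 ratio of the AT2-like sum was 0.27. Of the AT2-like clusters at resolution 1, only the largest had intervals of the sum that did not overlap between the libraries. In the largest, led by Bex2 and Sftpc, the sum was 4474 and 5745 CPM (935 and 1166 cells). In the cluster led by Slc26a4, Retnla and Chia1, with 43 and 461 cells, it was 6322 (6046 to 6606) and 6553 (6464 to 6644) CPM, and in the one led by Scd1, with 13 and 55 cells, 8164 (7594 to 8765) and 8370.4 (8086 to 8663) CPM. In both smaller clusters the intervals overlapped. At resolution 2 the cluster led by Slc26a4, with 21 and 405 cells, held 5944 (5564 to 6345) and 6717 (6622 to 6814) CPM. Those intervals did not overlap.

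**Figure D5:**
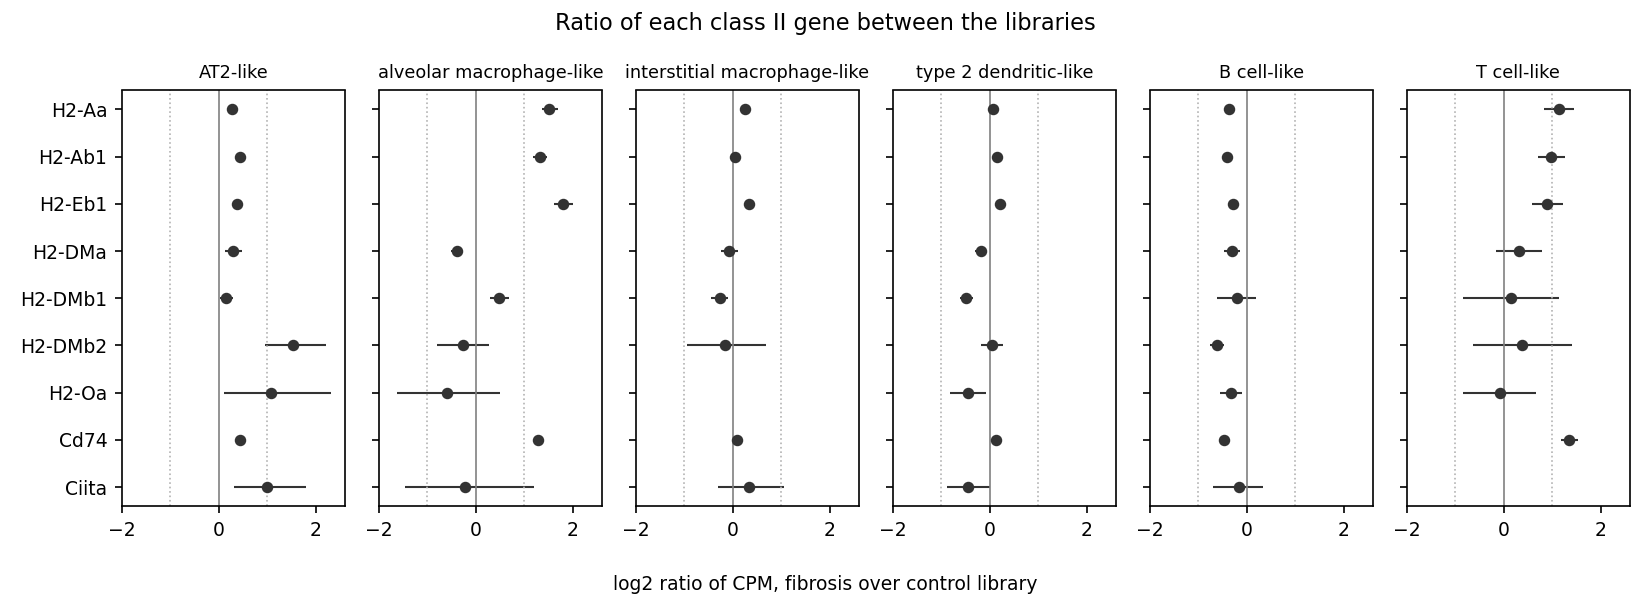
Log2 ratio of CPM, fibrosis over control library, for each member in 6 classes, with exact 95% intervals of counting error; the solid line marks 0 and dotted lines a 2-fold difference, and members with fewer than 20 UMIs are left out. In alveolar macrophage-like cells the surface chains and Cd74 lie between 1.29 and 1.80 while H2-DMa lies at -0.39, and in B cell-like cells all 9 lie below 0.

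Alveolar macrophage-like cells split the set. H2-Aa was 116 and 332 CPM (log2 ratio 1.52, 1.36 to 1.68), H2-Ab1 155 and 387 CPM (1.31), H2-Eb1 72.0 and 252 CPM (1.80) and Cd74 441 and 1078 CPM (1.29). H2-DMa was lower in the fibrosis library over the whole class, 308 and 235 CPM (-0.39, -0.50 to -0.27), and H2-DMb1 was 93.7 and 131 CPM (0.48). H2-DMb2, H2-Oa and Ciita had intervals that include 0. Thus 4 of 9 members were at least 2-fold higher and 0 lower, where 5.27% of 10331 genes were higher and 1.9% lower. By gating and with equal doublet removal 2 were higher, and 1 was lower with at most 5% mitochondrial UMIs and when thinned. In T cell-like cells the log2 ratios of these 4 were 1.13, 0.98, 0.90 and 1.35, where H2-Aa was 81.5 and 179, H2-Ab1 99.6 and 197, H2-Eb1 78.5 and 146 and Cd74 231 and 589 CPM.

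The alveolar macrophage-like class was not of 1 kind in both libraries. The cluster led by Fabp1 and Ear1 held 618 control and 614 fibrosis cells, with a class II sum of 1247 and 2223 CPM. The cluster led by Mmp12, Spp1 and Rnase2a held 28 and 430 cells, with 451 (351 to 571) and 2652 CPM. H2-DMa was 316 and 280 CPM in the first and 144 and 189 CPM in the second, where the control value rests on 22 UMIs. Without the Mmp12 cluster, H2-DMa stood at a log2 ratio of -0.18, H2-Aa at 1.22, H2-Ab1 at 1.03, H2-Eb1 at 1.34 and Cd74 at 1.11, and 4 members still passed. The 8 interstitial macrophage markers summed to 53.8 CPM in the control (Folr2 at 0) and 524 CPM in the fibrosis alveolar macrophage-like cells, and their part in the result was not tested. With the same share of cells removed as doublets in both libraries, the log2 ratio of the sum was 0.64 in place of 1.01.

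In classical monocyte-like cells 6 of 9 members were at least 2-fold higher in the fibrosis library, against 5.55% of genes higher, with log2 ratios of 1.79 for H2-Aa, 1.69 for H2-Ab1, 2.08 for H2-Eb1, 1.37 for Cd74, 2.64 for H2-DMb2 and 3.13 for H2-Oa. At resolution 1 the class held 2 clusters in unlike proportion. The one led by Vcan, F13a1 and Prtn3 held 1338 and 287 cells, with a sum of 890.2 (868 to 913) and 765 (717 to 814) CPM, lower in the fibrosis library. The one led by Cxcl10, Ifit1 and Rsad2 held 61 and 66 cells, with 5237 and 10303 CPM. The 9 B cell markers in classical monocyte-like cells summed to 50.3 and 359 CPM, and H2-DMb2 was 6.02% and 35.0% of both H2-DMb genes there. Their part in the class ratio was not tested.

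Nonclassical monocyte-like cells held the set at a log2 ratio of 0.52 (0.49 to 0.55), with H2-Aa at 0.69, H2-Ab1 at 0.49 and H2-Eb1 at 0.80, while H2-DMb1 lay at -0.24 (-0.43 to -0.04) and H2-DMa at -0.16 (-0.34 to 0.02). The size of this difference depended on the clustering. The sum was 7913 and 11373 CPM over 568 and 435 cells. At resolution 2 this class held 336 and 286 cells, with a sum of 7657 and 8818 CPM. Interstitial macrophage-like cells differed by 0.14 (0.12 to 0.16), with H2-Eb1 at 0.33, H2-Aa at 0.26, Cd74 at 0.10, H2-DMb1 at -0.27 and H2-Ab1 at 0.05, whose interval of -0.01 to 0.10 includes 0. No member of the 8 with at least 20 UMIs was 2-fold higher, where 4.14% of genes were. The direction of the sum turned to -0.13 when each cell was gated by its own markers and to -0.03 with equal doublet removal.

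Dendritic-like cells showed small differences in the set, and the sign in type 2 dendritic-like cells depended on the processing. In type 2 dendritic-like cells the log2 ratio of the sum was 0.12 (0.10 to 0.13), H2-Eb1 was at 0.22 and H2-Ab1 at 0.15, and H2-DMb1 at -0.48 (-0.62 to -0.35), H2-Oa at -0.46 and H2-DMa at -0.18. That sum was -0.30 at the finer clustering, which kept 69 and 157 cells led by Cd209a and Ccl17, -0.18 by gating and -0.06 with equal doublet removal. In type 1 dendritic-like cells, with 89 and 197 cells, the sum stood at -0.24 (-0.26 to -0.22), with H2-Ab1 at -0.30, H2-Aa at -0.23, H2-Eb1 at -0.14 and H2-DMb1 at -0.37. No member differed 2-fold in either subtype, where 3.3% of genes were lower in type 1, and 3.95% were higher and 3.42% lower in type 2 dendritic-like cells.

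B cell-like cells, 886 and 349, held less of the whole set in the fibrosis library, with a log2 ratio of -0.43 (-0.45 to -0.40). All 9 members were lower, from H2-DMb2 at -0.62 (-0.77 to -0.48) and Cd74 at -0.47 to H2-DMb1 at -0.20 and Ciita at -0.17, the last 2 with intervals that include 0. No member was 2-fold lower, where 2.65% of 7546 genes were. The median log2 ratio was -0.32 over the members and 0.01 over all genes. The class's own markers were lower as well. The 9 B cell markers summed to 9313 and 7486 CPM, with Cd79a at 2924 and 2242 and Ebf1 at 1831 and 1452 CPM, and their part in the result was not tested.

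T cell-like cells differed by a log2 ratio of 1.07 (0.96 to 1.19), and the 9 B cell markers in T cell-like cells summed to 62.1 and 150 CPM there. The T cell-like level is not a floor for all classes. Neutrophil-like cells (643 and 48) held 327 and 441 CPM (0.45, -0.03 to 0.86), and mesothelial-like cells (33 in each library) 504 and 449 CPM (-0.17, -0.53 to 0.20). Nor is it a floor for each member. In the control library H2-Oa stood at 19.9 CPM in T cell-like cells but 0.782 CPM, from 1 UMI, in neutrophil-like cells. H2-DMa stood there at 42.8 CPM in T cell-like and 10.2 CPM in neutrophil-like cells. In T cell-like cells 2 of 8 members with enough UMIs were at least 2-fold higher, H2-Aa (1.13) and Cd74 (1.35), where 3.44% of genes were. Ciliated-like cells had 3 of 6 (4.59% of genes), NK cell-like cells 6 of 8 (4.86% of genes) and endothelial-like cells 7 of 8 (4.56% of genes). The sums differed by 1.21 in ciliated-like, 2.62 in NK cell-like and 1.41 in endothelial-like cells. The ciliated-like class was smaller at resolution 2, where a separate cluster led by Cyp2f2 and Scgb1a1 was named club. Markers of other cells moved alongside in NK cell-like cells, where the 9 B cell markers summed to 128 and 699 CPM and the 8 interstitial macrophage markers to 26.0 and 413 CPM, with Folr2 at 0 in both libraries. In endothelial-like cells the 8 AT2 markers summed to 2280 and 5920 CPM, the 7 type 2 dendritic markers to 9.21 and 62.5 CPM, the 8 interstitial macrophage markers to 187 and 245 CPM and the 9 B cell markers to 425 and 403 CPM. In ciliated-like cells the AT2 markers summed to 5376 and 12266 CPM. Their part in these differences was not tested.

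Among other genes of the pathway, 0 of 8 genes for antigen and invariant chain processing passed a 2-fold difference in AT2-like cells. Of all genes 3.51% were higher and 1.17% lower in that class. There Ctsh, a protease abundant in these cells, stood at 893 and 897 CPM, Cst3, a protease inhibitor, at 435 and 445 CPM, Ctsb at 205 and 263 CPM and Ctsd at 112 and 124 CPM. In alveolar macrophage-like cells, whose clusters differed in size between the libraries (28 and 430 cells in the one led by Mmp12), 2 of 8 were higher, where 5.27% of all genes were. These were Ctsl (273 and 719 CPM, 1.39) and Lgmn (174 and 523 CPM, 1.59), named after their values were seen, while Ctss, which trims the invariant chain in many presenting cells, stood at 3516 and 4128 CPM and Ctsd at 3717 and 4154 CPM. None of the 8 passed in interstitial macrophage-like, type 2 dendritic-like or B cell-like cells.

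The transcription complex had 0 of 7 genes past a 2-fold difference in AT2-like, alveolar macrophage-like and B cell-like cells, and 0 of 5 with enough UMIs in interstitial macrophage-like and type 2 dendritic-like cells. Of the interferon gamma pathway, 0 of 8 genes passed in AT2-like cells, where Jak1 stood at 47.7 and 53.4, Socs3, a feedback inhibitor of cytokine signalling, at 25.3 and 46.6, Ifngr1 at 32.2 and 33.0 and Jak2 at 23.3 and 29.3 CPM. In alveolar macrophage-like cells 1 of 8 passed, Socs3 at 8.18 and 19.1 CPM. Over all genes, 5.27% were at least 2-fold higher and 1.9% lower in that class, and 3.51% and 1.17% in AT2-like cells. Counts this low in lists this short are near such shares and say little about either list. Costimulation was thinly covered in AT2-like cells, with 1 of 8 genes reaching 20 UMIs, Tnfsf9 at 11.6 and 16.5 CPM. Cd80 had 0 UMIs in both libraries, which allows 0.495 and 0.293 CPM, and Cd86 had 2 and 11 UMIs.

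Of MHC class I, which presents peptides to CD8 T cells, 2 of 11 genes were at least 2-fold higher in AT2-like cells of the fibrosis library, where 3.51% of all genes were. B2m stood at 388 and 615 CPM (0.66), H2-K1 at 589 and 827 CPM (0.49), H2-D1 at 512 and 660 CPM (0.37) and Tapbp at 84.5 and 96.7 CPM (0.19). These did not pass. The 2 that did were H2-Q6 (2.19) and H2-Q7 (1.24), near-identical paralogs whose counts are uncertain and which were named after their values were seen. The list's median log2 ratio was 0.34, against 0.05 over all genes. Of the remaining class II locus genes, H2-Ob, the partner chain of H2-Oa, stood at 3.63 and 6.84 CPM in AT2-like cells.

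Across 14 classes in 2 libraries, giving 28 points, Cd74 (r = 0.998), H2-Aa (0.997), H2-Ab1 (0.996) and H2-Eb1 (0.989) followed the sum of the set most closely on log2(CPM + 10), then Ciita (0.95), H2-DMa (0.889), H2-DMb1 (0.880), H2-DMb2 (0.732) and H2-Oa (0.607). The points share libraries and depth, and Cd74 and the surface chains make up most of the sum. Of 11502 other genes the nearest patterns were those of Fgd2 (r = 0.864), Marcksl1 (0.855), Kmo (0.829), Icosl (0.818) and Hepacam2 (0.812). Fgd2 stood at 202 and 165 CPM in type 1 dendritic-like, 60.4 and 55.4 CPM in B cell-like and 21.8 and 24.6 CPM in AT2-like cells, against 1.76 and 5.18 CPM in T cell-like cells. Icosl, a costimulatory ligand, stood at 27.0 and 34.0 CPM in type 2 dendritic-like cells and at 0.495 and 1.47 CPM in AT2-like cells.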

How the data were processed

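The files are whole-lung 3′ single-cell tables of 2 libraries. The deposited values are raw UMI counts per gene and cell; per the submitters' processing notes bcl2fastq, Cell Ranger 1.3 and mm10 were used, and the annotation is not given in the sources used here. Of the gene identifiers 99.0% occur in GENCODE M21. Cells needed at least 200 genes and at most 10% mitochondrial UMIs. Scrublet (scanpy 1.11.5) gave each library's cells a doublet score. Its own threshold took 0.162% of control cells, too few to have worked, and the 515 highest scores (6.42%) were removed instead; the fibrosis library lost 168 cells (2.42%) at its threshold, so removal was unequal. Cells of both libraries were clustered together (2000 variable genes without the 9 members, 30 components, 15 neighbours, Leiden resolution 1, python-igraph 0.11.9). A cluster took a name when at least 3 markers were raised 2-fold with a mean log2 excess of at least 1, and was mixed when another lineage scored at least 33% as high. Grouping plasmacytoid with myeloid lineages and ignoring red cell markers in the mixed call were decided after the clusters had been seen. Names are rebuilt and may differ from the study's, hence "-like".

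Counts were summed per class and library. A gene with at least 20 UMIs differed when its log2 ratio, with 0.5 UMI added to each sum, reached 1. Shares carry exact Clopper-Pearson intervals, and a count of 0 an upper limit of 3 counts. The members, lists and markers were chosen with earlier results of these data known. All 9 members are named, and from each list up to 4 genes with most UMIs in the class. Interval and fold code was tested on simulated data. In all 16 alternatives were run, 13 of them planned.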

Additional observations from a re-analysis of the deposited data

How the results depend on the processing

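No paired analysis was possible because each group is 1 library from 1 mouse. Each comparison rests on 1 mouse a group, no library can be left out, and no batch can be told apart from the groups. Log2 ratios of the class II sum are given with the value above first. AT2-like (0.40): 0.36 without doublet removal, 0.35 with equal doublet removal, 0.29 with at most 5% mitochondrial UMIs, 0.35 without Cd74, 0.35 with the median of all genes subtracted, 0.27 with the T cell-like level subtracted and 0.45 as the median over cells, an alternative chosen after seeing the data. Alveolar macrophage-like (1.01): 0.66 by gating, 0.94 with members among the variable genes, 0.64 with equal doublet removal, 0.89 with 5% mitochondrial UMIs, 1.075 as the mean over cells, 1.15 thinned to 1000 UMIs, 0.82 without Cd74, 1.07 with the median subtracted, 0.95 with the T cell-like level subtracted, 0.83 without the cluster led by Mmp12 (chosen after seeing the data) and 0.60 as the median over cells. Interstitial macrophage-like (0.14): reversed to -0.13 by gating and -0.0316 with equal doublet removal; 0.11 with members among the variable genes, 0.11 at resolution 2, 0.0947 without doublet removal, 0.0805 as the mean over cells, 0.0809 thinned, 0.18 without Cd74, 0.18 with the median subtracted and 0.18 as the median over cells. Type 2 dendritic-like (0.12): reversed to -0.18 by gating, -0.30 at resolution 2 and -0.0564 with equal doublet removal; 0.17 with members among the variable genes, 0.0690 without doublet removal, 0.0405 as the mean over cells, 0.0283 thinned, 0.18 with the median subtracted and 0.0702 as the median over cells. B cell-like (-0.43): -0.50 with members among the variable genes, -0.40 with 5% mitochondrial UMIs, -0.38 without cells under 2000 UMIs, -0.37 without Cd74 and -0.48 with the T cell-like level subtracted. AT2-like over T cell-like cells (2.67, mean of both libraries): 3.50 by gating, 2.97 with members among the variable genes, 3.01 at resolution 2, 2.78 with equal doublet removal, 2.95 with 5% mitochondrial UMIs, 3.07 as the mean over cells, 2.98 thinned, 2.13 without Cd74 and 3.93 as the median over cells. Members at least 2-fold higher numbered 1 in place of 2 in AT2-like cells by gating, without doublet removal, as the mean over cells and without the cluster led by Scd1 (chosen after seeing the data), and 2 in place of 4 in alveolar macrophage-like cells by gating and with equal doublet removal. Members at least 2-fold lower numbered 1 in place of 0 in alveolar macrophage-like cells with 5% mitochondrial UMIs and when thinned, and in type 2 dendritic-like cells at resolution 2. The cause of these moves was not tested. The signs of the AT2-like, alveolar macrophage-like and B cell-like sums held under every alternative run for them. Depth limits Ciita, H2-Oa and H2-DMb2 outside dendritic-like and B cell-like cells, where sums were often under 50 UMIs.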
